A study of Mus musculus with 27 samples.

Results

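Ccl2, Ccl7, Ccl8 and Ccl12 encode the CC chemokines that attract monocytes in the mouse, and their messenger RNA was followed here in alveolar macrophages after lung injury. The 4 genes were taken by their symbols, whatever their values, from the 38124 genes of the count table. All 4 passed the filter on low counts. Ccl2 reached 10 counts in 3 resident and 12 recruited libraries and Ccl7 in 2 and 12, whereas Ccl8 and Ccl12 did so only in recruited libraries (6 and 5), where they are high. Macrophages were washed from the airspaces of C57B/6 mice aged 8 to 14 weeks and sorted by surface markers. Resident cells (CD11c+CD11b-) came from untreated mice (day 0) and from mice on days 3, 6, 9 and 12 after 20 ng of bacterial lipopolysaccharide (LPS) in 50 µL of buffered saline was put into the trachea. Recruited cells (CD11c-CD11b+) came from LPS-treated mice on days 3, 6, 9 and 12, and no recruited group was untreated. The populations are defined by the sort gate and not by lineage tracing. The study's title sets resident cells against recruited ones during acute lung injury. Each of the 9 groups had 3 libraries, 27 in all, with 11093216 to 18299674 counts in genes in each (median 14859352). Nothing in the labels says that the libraries of a group came from separate animals, so p-values may measure only a technical spread between these samples.

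Chemokines are small secreted proteins that guide cells along a concentration gradient. Those of the CC class carry a pair of adjacent cysteines near the start of the mature protein. Ccl2, Ccl7, Ccl8 and Ccl12 act through G-protein-coupled receptors of the CCR family, of which Ccr2 brings Ly6C-high monocytes out of the bone marrow and into inflamed tissue, and activated macrophages are among their known sources in the lung. Ccl2, also called MCP-1, is the best known of them, Ccl7 is MCP-3, Ccl8 is MCP-2, and Ccl12 is MCP-5, a chemokine of the mouse.

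The 4 genes lie on the plus strand of chromosome 11 (GRCm38, GENCODE M21), within 1 cluster. Ccl2 (ENSMUSG00000035385) spans 82035571 to 82037453, Ccl7 (ENSMUSG00000035373) 82045712 to 82047525, Ccl12 (ENSMUSG00000035352) 82101845 to 82103400, and Ccl8 (ENSMUSG00000009185) 82115185 to 82116799. All are annotated as protein coding. Their coding sequences are shown here around the codons of the adjacent cysteines, in capitals, since these define the class and show how far the 4 transcripts can be told apart by reads. Each stretch is 54 bases of the coding sequence, 5′ to 3′, from the GENCODE transcripts.
Ccl2: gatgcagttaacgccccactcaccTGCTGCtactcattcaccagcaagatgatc
Ccl7: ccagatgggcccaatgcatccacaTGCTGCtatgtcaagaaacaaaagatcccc
Ccl8: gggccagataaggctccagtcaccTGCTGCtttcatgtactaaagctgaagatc
Ccl12: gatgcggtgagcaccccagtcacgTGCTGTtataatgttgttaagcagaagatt
Each coding sequence holds 1 such pair of codons. Aligned end to end, the coding sequences of any 2 members were identical at 69.1% (Ccl7 and Ccl8) to 72.4% (Ccl2 and Ccl7) of the aligned bases. The longest run of bases shared by any 2 of the whole transcripts was 23, between Ccl2 and Ccl7. The exons of the 4 genes share no base with each other or with Gm17268, the gene on the opposite strand across Ccl2, which had 1 count in all 27 libraries together. The next chemokine genes of the cluster were close to silent: Ccl11, between Ccl7 and Ccl12, and Ccl1, beyond Ccl8, each had 2 counts in all.

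Promoters of Ccl8 and Ccl12 were read from RefSeq (GRCm38.p6) and are shown because in recruited cells Ccl12 was called lower than day 3 on each later day and Ccl8 on none. The 250 bases before each transcription start are printed 5′ to 3′ on the plus strand, at chr11:82114935-82115184 for Ccl8 and chr11:82101595-82101844 for Ccl12, with the TATAAA motif in capitals.
Ccl8: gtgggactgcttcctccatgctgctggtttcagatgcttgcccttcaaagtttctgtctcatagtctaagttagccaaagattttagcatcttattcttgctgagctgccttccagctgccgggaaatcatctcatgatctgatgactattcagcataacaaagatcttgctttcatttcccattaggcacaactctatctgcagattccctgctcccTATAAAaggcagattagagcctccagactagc
Ccl12: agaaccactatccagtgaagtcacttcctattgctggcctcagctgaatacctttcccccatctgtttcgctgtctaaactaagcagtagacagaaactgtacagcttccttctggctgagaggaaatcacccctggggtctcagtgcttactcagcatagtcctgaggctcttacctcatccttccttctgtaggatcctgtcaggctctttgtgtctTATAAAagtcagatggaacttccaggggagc
The motif TATAAA began 32 bases before the start of Ccl8 and 31 bases before that of Ccl12, and 12.4% of 32851 mouse promoters of this length held it on either strand. None of the other 6 patterns searched on both strands was in either window: the NF-kB motif (in 7.25% of promoters), AP-1 as TGANTCA (6.75%), the interferon response pattern (2.98%), the gamma-activated pattern TTCNNNGAA (7.02%), C/EBP as TTGCNNAA (9.56%) and Sp1 as GGGCGG (32.7%). These are matches of letters in 1 window and say nothing about binding.

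Counts were scaled to CPM, a gene's share of the library's counts with TMM factors applied to the total. Differences are log2 ratios fitted by edgeR's quasi-likelihood test over all 27 libraries, with a p adjusted over the 13599 genes tested (Benjamini-Hochberg). The standard error (SE) is approximate: it is the size of the difference divided by the square root of the test's F statistic. It is least reliable for differences near 0. A gene is said to be higher or lower where the adjusted p is under 0.05. With so few counts in the resident cells, SEs are given only where both groups hold more than 3 counts of the gene in all. Markers of resident alveolar macrophages set the populations apart. All 12 found in the table were detected, their summed level was 15704 to 32945 CPM in resident and 2376 to 9702 CPM in recruited libraries, and 11 of 12 were lower in recruited cells (all genes: 30%). Recruited day 9 replicate 2 and recruited day 12 replicate 1 stood apart from the other libraries of their groups, with 26685 and 24996 CPM summed over 13 markers of C1q-expressing macrophages, against 6290 to 10102 CPM in the other 4 libraries of those days. Most of these sums was Apoe, at 19796 and 19503 CPM against 4500 to 8704 CPM in those 4 libraries. C1qa was at 1527 and 1238 CPM against 89.1 to 227 CPM. The 2 libraries also had fewer reads outside genes (6.93% and 7.03% against 10.7% to 13.02%). Both belong to the run of column numbers 12 to 18 in the table of unassigned reads, whose meaning no source used here gives. The resident libraries of this run, day 9 replicate 2 and day 12 replicate 1, had 6.77% and 7.06% of reads outside genes. The other resident libraries of those days had 8.08% to 12.7%. Markers of monocytes summed to 11776 and 10128 CPM in the former and to 4442 to 6067 CPM in the latter. Resident libraries of the run were kept where the recruited ones were left out. Recruited day 6 replicate 2 had the most reads outside genes (26.5%). Results that rest on recruited day 9 replicate 2 or recruited day 12 replicate 1 are given with and without them.

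All 4 chemokines were higher in recruited than in resident cells averaged over days 3, 6, 9 and 12, where 30.3% of all genes were. Ccl8 and Ccl12 had passed the filter on low counts only through recruited libraries, which favours such a result. With 12 libraries of either population, Ccl2 was higher by 5.42 ± 0.40 log2 (SE; adjusted p = 3.54e-10), Ccl7 by 5.93 ± 0.50 (adjusted p = 3.48e-09), Ccl8 by 4.95 ± 0.96 (adjusted p = 0.000221) and Ccl12 by 3.77 ± 0.58 (adjusted p = 6.80e-06). Their median difference was 5.19, against 0.02 over all genes tested. The difference in Ccl8 was 3.85 without recruited day 9 replicate 2 (adjusted p = 0.0209), 5.73 without resident day 3 replicate 3, and 3.27 without both libraries that stood apart (adjusted p = 0.0135). In bulk samples such as these, fewer cells that express a gene and less RNA per cell cannot be told apart.

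**Figure D1:**
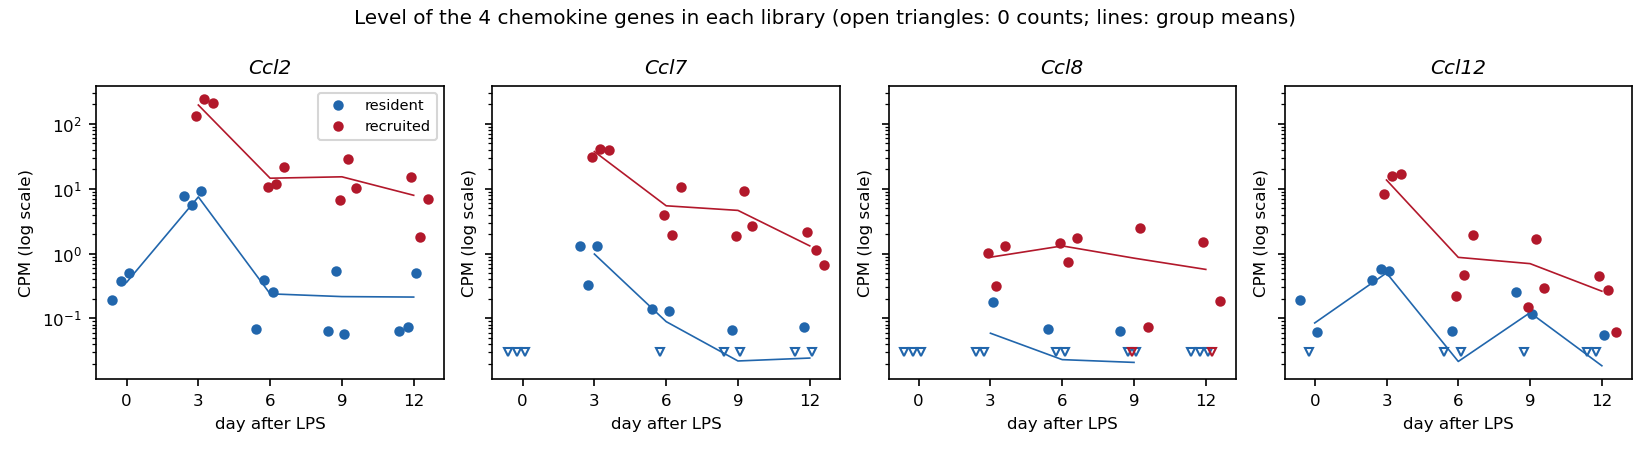
Level of each chemokine gene in each library, in CPM on a log axis, by day after LPS for resident (blue) and recruited (red) cells; lines join the group means above 0 and open triangles, drawn at a fixed height, are libraries with 0 counts. Ccl2, Ccl7 and Ccl12 peaked on day 3 in both populations, and Ccl8 stayed between 0 and 2.47 CPM in recruited cells.

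Ccl2 was the member with the most counts. In recruited cells on day 3 it stood at 133, 238 and 213 CPM in replicates 1 to 3, and in resident cells of that day at 7.68, 5.67 and 9.05 CPM. The recruited libraries were all above the resident ones, by 25.1 times in the ratio of summed levels and by 4.69 ± 0.61 log2 in the fit (SE, n = 3 per group, adjusted p = 2.63e-06). Ccl7, which binds several CC receptors besides Ccr2, stood at 31.3, 41.1 and 39.5 CPM in recruited and 1.31, 0.333 and 1.30 CPM in resident cells on day 3. Again no libraries overlapped, and the difference was 5.19 ± 0.67 log2 (adjusted p = 3.31e-06). Ccl12 stood at 8.37, 15.6 and 16.8 CPM in recruited cells, with replicate 1 the lowest as for Ccl2 and Ccl7, and at 0.394, 0.584 and 0.532 CPM in resident cells. It differed by 4.74 ± 0.73 log2 (adjusted p = 1.29e-05). Ccl8 was a minor transcript even at this time. It had 15, 4 and 18 counts (1.01, 0.314 and 1.31 CPM) in recruited libraries and 0, 0 and 3 counts in resident ones, so that the ratio of summed levels was 13.2 (95% counting interval 4.17 to 66.8). This did not pass the test (adjusted p = 0.0739), and did so in the fit that pairs libraries of the same day and number (adjusted p = 0.00662). Thus 3 of 4 members were higher in recruited cells on day 3, as were 23.2% of all genes. Of these 3, Ccl12 had passed the filter through recruited libraries alone.

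The gap between the populations was seen again on later days, at lower levels. On day 6 Ccl2 was at 10.5, 11.8 and 21.2 CPM in recruited cells and at 0.0695, 0.391 and 0.258 CPM in resident ones, a difference of 5.86 ± 0.87 log2 (adjusted p = 2.29e-05). Ccl7 was at 3.88, 1.95 and 10.5 CPM in recruited cells against 2, 0 and 2 counts in resident ones (5.83 ± 0.94 log2, adjusted p = 6.32e-05, and 4.93 without recruited replicate 3). Ccl8 had 20, 8 and 25 counts in recruited cells against 1, 0 and 0 in resident ones (ratio 61.7, counting interval 10.6 to 2482, adjusted p = 0.0238). Ccl12 had 3, 5 and 28 counts against 0, 1 and 0 (ratio 41.9, counting interval 7.05 to 1700, adjusted p = 0.00429). In all 4 genes the highest recruited library of day 6 was replicate 3, and without it the calls of Ccl8 and Ccl12 were lost (adjusted p = 0.0527 and 0.0734). That of Ccl8 was also lost without any 1 of the 3 resident libraries (adjusted p from 0.0542 to 0.0834). All 4 members were higher in recruited cells on day 6, with 16.2% of all genes. Of these members, Ccl8 and Ccl12 had passed the filter through recruited libraries alone, which favours such a result.

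On days 9 and 12 Ccl2 and Ccl7 were called and Ccl8 and Ccl12 were not. Ccl2 was at 6.62, 28.8 and 10.3 CPM in recruited cells on day 9 and at 14.9, 1.81 and 7.01 CPM on day 12, and never above 0.530 CPM in a resident library of those days. The differences were 6.12 ± 0.88 log2 on day 9 (adjusted p = 1.83e-05) and 5.02 ± 0.90 on day 12 (adjusted p = 0.000308). Without the recruited library that stood apart they were 5.27 and 4.25, and without the highest resident library, day 9 replicate 2 or day 12 replicate 3, they were 7.78 and 6.66. Ccl7 was at 1.89, 9.37 and 2.62 CPM in recruited cells on day 9 and at 2.15, 1.12 and 0.671 CPM on day 12, and had 1 count in all 3 resident libraries of either day. The ratio was 204 on day 9 (counting interval 36.2 to 8093, adjusted p = 5.44e-05) and 57.5 on day 12 (9.86 to 2314, adjusted p = 0.00526). Without the recruited library that stood apart it was 105 on day 9 (18.3 to 4209, adjusted p = 0.000228) and 41.5 on day 12 (6.83 to 1698). Ccl8 had 0, 33 and 1 counts in recruited cells on day 9 and 17, 0 and 3 on day 12, against 1 and 0 counts in all resident libraries of these days. Its adjusted p was 0.0565 on day 9 and 0.0815 on day 12, where the summed level was at least 7.51-fold higher than in resident cells. The libraries that stood apart held 33 of the 34 recruited counts of day 9 and 17 of the 20 of day 12. Without them the recruited cells held 1 count on day 9 (adjusted p = 0.921) and 3 on day 12 (adjusted p = 0.418), which is at the floor. With them Ccl8 was called in the paired fit (0.0156 and 0.0122) and by DESeq2 (0.0301 and 0.0232). Ccl12 had 3, 22 and 4 counts in recruited against 4, 0 and 2 in resident cells on day 9 (adjusted p = 0.0741, and 0.0381 by DESeq2), with overlapping libraries, and 5, 4 and 1 against 0, 0 and 1 on day 12 (adjusted p = 0.151). The difference of Ccl12 on day 9 was 2.34 log2, and 0.73 without the recruited library that stood apart (adjusted p = 0.655). On day 12 it was 2.57 without the recruited library that stood apart (adjusted p = 0.346). So 2 of 4 members, Ccl2 and Ccl7, were higher in recruited cells on day 9 and on day 12, when 15.6% and 12.6% of all genes were.

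**Figure D2:**
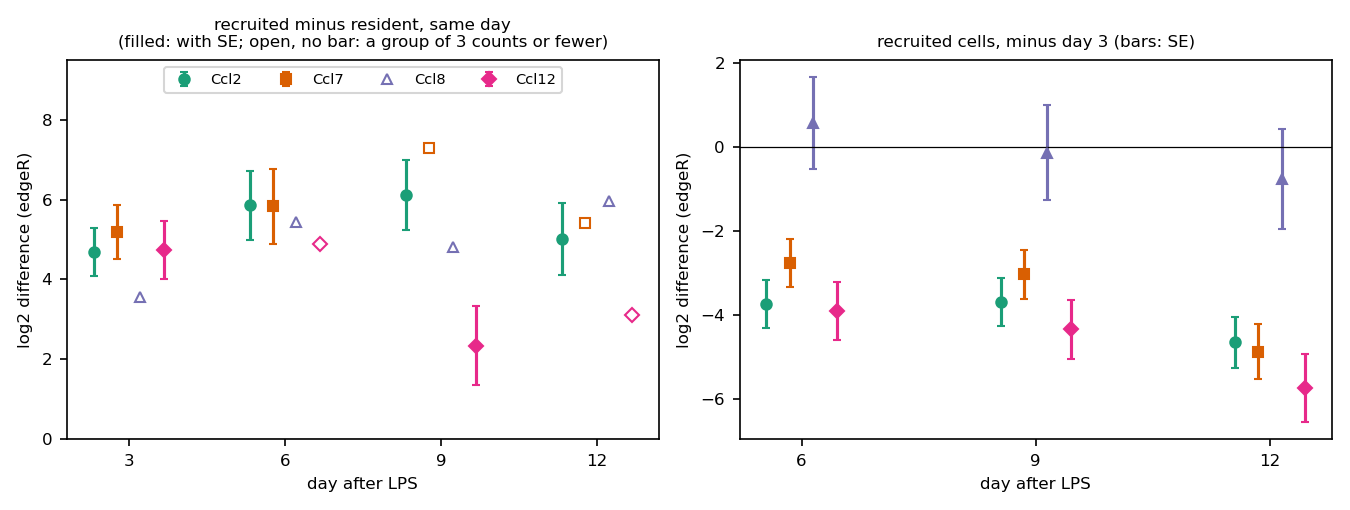
Log2 differences fitted by edgeR, between recruited and resident cells of the same day (left) and between later days and day 3 in recruited cells (right), with bars for the SE; open symbols without a bar mark comparisons in which 1 group held 3 counts or fewer. All population differences lie above 0, from 2.34 to 7.29, and in recruited cells only Ccl8 lies near 0. The lowest, Ccl12 on day 9, was 0.73 without recruited day 9 replicate 2.

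Whether the gap itself changed with time was tested as the difference between 2 population differences. In edgeR 0 of 4 members were called for day 6 against day 3 (all genes, 8.43%), day 9 against day 3 (13.2%), day 12 against day 3 (13.6%) or any of these (10.7%), with 0 members at an unadjusted p under 0.05 and 0 called by DESeq2. The estimates for Ccl2 were 1.16, 1.43 and 0.32 log2 on days 6, 9 and 12 (adjusted p = 0.616, 0.490 and 0.889), with SEs of 1.12 to 1.20. Those for Ccl7 were 0.65, 2.10 and 0.23 (adjusted p = 0.813, 0.477 and 0.897). For Ccl12 they were 0.15, -2.40 and -1.64 (adjusted p = 0.917, 0.295 and 0.806), and -3.99 on day 9 without recruited day 9 replicate 2 (adjusted p = 0.0572). The sign of several of these estimates turned when 1 library was left out, so that changes of the gap by several times in either direction could not be seen.

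Resident cells had little chemokine transcript before LPS and a short rise after it. Ccl2 was at 0.193, 0.383 and 0.503 CPM on day 0, from 3, 5 and 8 counts. On day 3 it was at 7.68, 5.67 and 9.05 CPM, well above every day 0 library, a rise of 4.35 ± 0.85 log2 (SE, n = 3 per group, adjusted p = 0.000928). Ccl7 had 0 counts in all 3 libraries of day 0, which allows up to 0.0674 CPM at the floor of 3 counts over the group, and 20, 4 and 22 counts on day 3. Its summed level was at least 15.5-fold higher (adjusted p = 0.00787). Ccl12 had 3, 0 and 1 counts on day 0 and 6, 7 and 9 on day 3, which is 5.55 times in summed level (counting interval 1.88 to 22.2) and 2.38 ± 1.10 log2 and did not pass the test (adjusted p = 0.122). Ccl8 had 0 counts on day 0 and 3 counts, all in replicate 3, on day 3, which is within the floor. In all, 2 of 4 members rose in resident cells on day 3, as did 13.3% of genes.

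The rise in resident cells had ended by day 6. Ccl2 fell by 4.90 ± 0.90 log2 from day 3 to day 6 (adjusted p = 0.000609), where its libraries overlapped those of day 0. Ccl7 fell from 46 counts over the group to 4 (adjusted p = 0.0319) and Ccl12 from 22 to 1 (adjusted p = 0.0352). Both of the latter calls were weak: the adjusted p of Ccl7 was above 0.05 without resident day 3 replicate 1 or 3 or any resident day 6 library (0.0670 to 0.120), that of Ccl12 without resident day 3 replicate 2 or 3 or any resident day 6 library (0.0611 to 0.111), and both with no filter on low counts (0.0793 and 0.0595). Still, 3 of 4 members were lower on day 6 than on day 3, as were 13.3% of genes. Against day 0, in edgeR 0 of 4 members were called on day 6, 9 or 12, when 6.42%, 3.49% and 1.3% of all genes differed in either direction, and 0 members had an unadjusted p under 0.05 or were called by DESeq2. Ccl2 was at 0.0630, 0.530 and 0.0580 CPM on day 9 and at 0.0636, 0.0735 and 0.503 CPM on day 12, so that its resident days 0, 6, 9 and 12 all overlapped.

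Transcripts of monocytes were also seen in the resident gate, where Ly6c2 had a course like that of Ccl2 and the summed monocyte markers did not. Ly6c2, a surface protein of inflammatory monocytes whose reads may be shared with its copy Ly6c1, was at 0, 0 and 0.252 CPM in resident cells on day 0, at 54.6, 26.2 and 69.5 CPM on day 3 and at 3.13, 1.37 and 4.64 CPM on day 6. The summed level of 9 monocyte markers was 1206 to 1968 CPM on day 0, 3200 to 4385 CPM on day 3 and 8171 to 8484 CPM on day 6, when Ccl2 was back at its day 0 level. It was 4442 to 11776 CPM on day 9 and 4499 to 10128 CPM on day 12. On day 3 the resident level was 3.83% of the recruited one for Ccl2, 2.63% for Ccl7, 6.73% for Ccl8 and 3.70% for Ccl12. For the monocyte markers with at least 5 CPM in recruited cells, the same percentage was 1.73% to 46.5% (median 8.13%, 9 genes), and for those of C1q macrophages it was 2.13% to 3312% (median 4.35%, 10 genes), the highest being Mrc1. The part of recruited cells within the resident gate in these values was not tested.

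In recruited cells Ccl2, Ccl7 and Ccl12 were highest on day 3 and lower on each later day. Ccl2 fell by 3.74 ± 0.57 log2 to day 6, fell by 3.69 ± 0.57 to day 9 and fell by 4.65 ± 0.61 to day 12 (adjusted p = 5.15e-05, 4.20e-05 and 4.60e-06). In summed level, day 3 was 12.9, 13.7 and 26.2 times those days. Ccl7 differed from day 3 by -2.76 ± 0.57, -3.03 ± 0.58 and -4.87 ± 0.66 log2 on days 6, 9 and 12 (adjusted p = 0.00107, 0.000417 and 8.73e-06). Ccl12 differed by -3.91 ± 0.69, -4.34 ± 0.71 and -5.75 ± 0.80 log2 (adjusted p = 0.000143, 4.48e-05 and 5.66e-06), and by day 12 its summed level on day 3 was 56.2 times higher (counting interval 30.3 to 118). For each of the 3 genes the libraries of day 3 lay above all libraries of the later days, and the share of all genes placed in this way was not counted. On each of the later days 3 of 4 members were lower than on day 3, against 16.8% of all genes on day 6, 18% on day 9 and 19.5% on day 12. These comparisons share the day 3 libraries, and Ccl12 had passed the filter through 5 recruited libraries, among them all 3 of day 3. Without recruited day 9 replicate 2 the difference between days 9 and 3 was larger, at -4.51 log2 for Ccl2, -4.04 for Ccl7 and -5.92 for Ccl12. Without recruited day 12 replicate 1 that of Ccl2 on day 12 was -5.41 log2, and without recruited day 6 replicate 3 those of Ccl7 and Ccl12 on day 6 were -3.66 and -5.32.

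Ccl8 gave no such call. Its 3 recruited libraries had 15, 4 and 18 counts on day 3 and 20, 8 and 25 on day 6, and the difference was 0.58 ± 1.09 log2 (adjusted p = 0.726). On days 9 and 12 the libraries split, with 33 counts in day 9 replicate 2 and 17 in day 12 replicate 1 and at most 3 in the other 4. Over all libraries Ccl8 differed from day 3 by -0.13 ± 1.12 log2 on day 9 and -0.75 ± 1.19 on day 12 (adjusted p = 0.944 and 0.658). Without the 2 libraries that stood apart, it differed by -4.49 log2 on day 9 (adjusted p = 0.00879) and by -3.06 on day 12 (adjusted p = 0.0280), and without day 9 replicate 2 alone by -4.50 on day 9 (adjusted p = 0.0293). Day 9 then rests on 1 count and day 12 on 3. With the runs of column numbers as a covariate the adjusted p was 0.0120 and 0.00423. Whether Ccl8 was called lower than on day 3 thus depended on which libraries were counted and on the covariate.

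**Figure D3:**
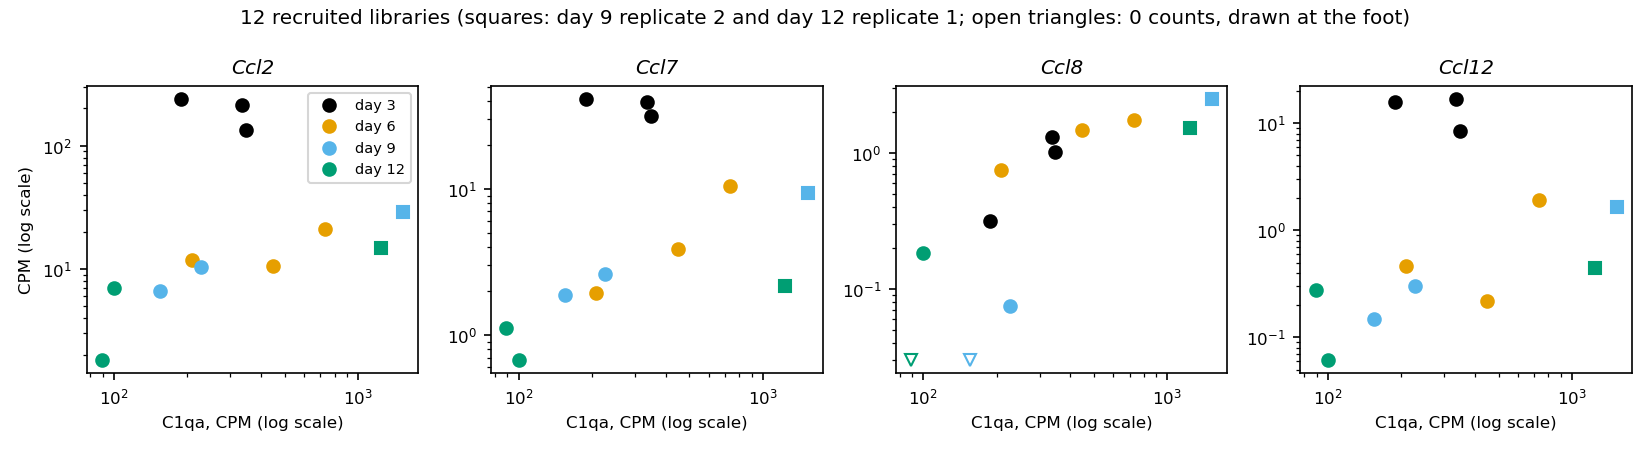
Level of each chemokine gene against C1qa, a complement gene of tissue macrophages, in the 12 recruited libraries (both in CPM on log axes), coloured by day; squares are day 9 replicate 2 and day 12 replicate 1, and open triangles are libraries with 0 counts of the chemokine. Ccl8 lies higher where C1qa is higher across the days, while Ccl2, Ccl7 and Ccl12 are highest in the day 3 libraries, where C1qa is at 188 to 347 CPM.

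Within the days, Ccl8 was set beside C1qa library by library. C1qa was at 347, 188 and 335 CPM on day 3, 448, 208 and 731 CPM on day 6, 155, 1527 and 227 CPM on day 9 and 1238, 89.1 and 100 CPM on day 12 in recruited cells. The order of the 3 libraries by Ccl8 was the same as by C1qa on 3 of 4 days, all but day 3, and for Ccl2 and Ccl7 it was so on 2 days and for Ccl12 on 1. For each of the 4 genes the library highest in C1qa was also the highest in the chemokine on 3 of 4 days. Deviations of log2 CPM from the group means correlated with those of C1qa, C1qb and C1qc at r = 0.94 for Ccl8, 0.82 for Ccl7, 0.82 for Ccl2 and 0.69 for Ccl12 over the 12 recruited libraries. Without the 2 libraries that stood apart (n = 10) r was 0.80, 0.76, 0.37 and 0.47. These are descriptions of points that share libraries, depth and group means, and Ccl8 rests on few counts. Among themselves the members gave r from 0.61 (Ccl8 and Ccl12) to 0.89 (Ccl7 and Ccl12).

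The order of the 9 groups by mean level showed the same contrast. Ccl2 ran from recruited day 3 (195 ± 55.1 CPM, SD, n = 3) through recruited days 9, 6 and 12 (15.2 ± 11.9, 14.5 ± 5.88 and 7.91 ± 6.59 CPM) to resident day 3 (7.47 ± 1.70 CPM) and the other resident days (0.214 to 0.360 CPM). The libraries overlapped between all neighbours in this order except after recruited day 3 and after resident day 3. Ccl7 had the order recruited days 3, 6, 9 and 12 and then resident day 3, at 37.3 ± 5.26, 5.45 ± 4.50, 4.63 ± 4.13, 1.31 ± 0.76 and 0.982 ± 0.562 CPM, with gaps at the same places. For Ccl12, resident day 3 (0.503 ± 0.098 CPM) came before recruited day 12 (0.263 ± 0.194 CPM), and only recruited day 3 (13.6 ± 4.57 CPM) was apart from its neighbour. For Ccl8, recruited day 6 came first (1.31 ± 0.51 CPM), and every pair of neighbours overlapped.

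**Figure D4:**
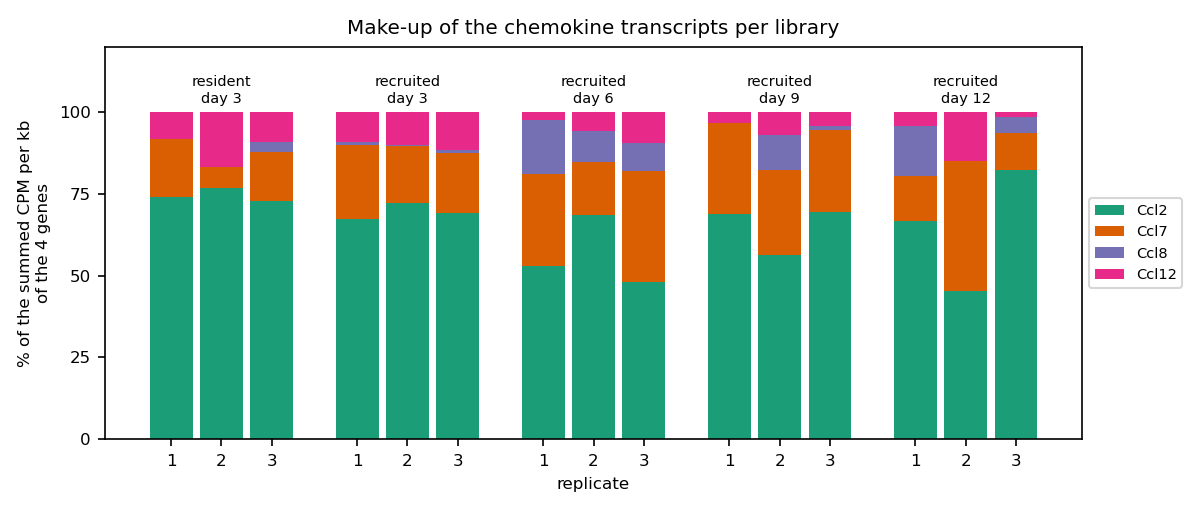
Share of each gene in the summed CPM per kb of exon of the 4 genes, in percent, in each of 15 libraries (resident day 3 and all recruited groups). Ccl2 makes up 45.4% to 82.5% of each bar, and Ccl8 makes up 8.73% to 16.5% on recruited day 6.

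Levels of different genes can be set side by side only per length of transcript, here as CPM per kb of all annotated exons. For Ccl2 these cover 1138 bases, while its coding transcript has 813, and for the other members both lengths are the same. Summed over the 4 genes this was 245 CPM per kb in recruited cells on day 3 (173 to 291 in the libraries), 23.7 on day 6, 22.1 on day 9 and 10.2 on day 12. In resident cells it was 8.84 on day 3 (6.48 to 10.9) and 0.253 to 0.488 on the other days. On day 3 Ccl2 gave 69.5% ± 2.42 of the recruited sum and 74.6% ± 2.04 of the resident one (SD, n = 3), Ccl7 19.5% ± 2.67 and 13.1% ± 5.98, and Ccl12 10.2% ± 1.31 and 11.3% ± 4.76. The share of Ccl2 was higher in each resident than in each recruited library of that day (72.9% to 76.8% against 67.3% to 72.1%), and the shares of Ccl7 and Ccl12 overlapped. Ccl8 gave 0.768% ± 0.491 of the recruited sum on day 3 and 11.6% ± 4.28 on day 6, when Ccl2 had 56.6% ± 10.7 and Ccl12 5.79% ± 3.47. The recruited libraries of days 3 and 6 did not overlap in the share of Ccl8, which was 0.211% to 1.14% and then 8.73% to 16.5%. On day 12 its share ranged from 0% to 15.2%. Per kb of the coding transcript, a length tried after these shares were seen, Ccl2 gave 76.2% ± 2.07 of the recruited and 80.4% ± 1.69 of the resident sum on day 3, again with the libraries apart. Ccl8 then gave 0.603% ± 0.388 on recruited day 3 and 9.51% ± 3.59 on day 6.

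The mature transcripts differ in a pattern that was looked at after these values were seen. The pentamer ATTTA, a letter pattern known from short-lived messenger RNAs, occurred 5 times (overlaps counted) in the 167 bases of the 3′ untranslated region of Ccl12, and 3 of 581 mouse coding genes with a region of like length (within 10%), Ccl12 included, had at least as many. That of Ccl2 (275 bases) held 1 and that of Ccl7 (435 bases) held 2, and 35.7% and 20.2% of regions of their length had as many. That of Ccl8 (165 bases) held none, and 21.8% of regions of its length held at least 1. No transcript stability was measured.

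The genes most like each member over all 27 libraries were found by the correlation of log2 CPM, as a description of libraries that share groups and depth. For Ccl2 they were Pid1, Hrh2, Padi4, Mefv and Pla2g7 (r = 0.96 to 0.97), and Ccl7 ranked 8 among 13598 genes, Ccl12 341 and Ccl8 1294. For Ccl7 they were Adssl1, Aif1, Inpp5j, Ltb4r1 and Cuedc2 (r = 0.97 to 0.98). For Ccl12 they were Hk3, Slc9a3r1, Gja1, Szrd1 and Gm807 (r = 0.93 to 0.95). For Ccl8 likeness was lower, with Rapgef3, Ctsb, Chst1, P4ha2 and Flvcr1 at r = 0.88 to 0.90, and the nearest other member, Ccl7, ranked 270.

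Receptors of these chemokines were measured in the same libraries. Ccr2, the receptor of Ccl2, Ccl7 and Ccl12, was at 85.5 to 149 CPM in recruited and 7.81 to 14.8 CPM in resident cells on day 3, a difference of 3.62 ± 0.48 log2 (adjusted p = 3.40e-06). In recruited cells it did not pass the test for a change after day 3 (-0.85, -0.62 and -0.09 log2 on days 6, 9 and 12, adjusted p = 0.139, 0.268 and 0.885), while its ligands Ccl2, Ccl7 and Ccl12 fell. Its recruited libraries of day 6 were spread, at 30.3, 44.3 and 137 CPM. The population difference of Ccr2 was smaller on day 6 than on day 3 (-2.35 log2, adjusted p = 0.0226). Its change was not called on day 9 or 12 (adjusted p = 0.230 and 0.263). In resident cells Ccr2 was 1.87 ± 0.46 log2 higher on day 6 than on day 0 (adjusted p = 0.0180) and was not called on day 3 (0.37 ± 0.47, adjusted p = 0.610), whereas Ccl2 was called on day 3 and not on day 6. Ccr1, a receptor of Ccl7, was high in both populations, at 293 ± 36.6 and 164 ± 11.6 CPM (SD, n = 3) on day 3 (0.84 ± 0.29 log2, adjusted p = 0.0224). Ccrl2, an atypical receptor that does not drive migration, had a course like that of Ccl2: it rose by 2.00 ± 0.59 log2 in resident cells on day 3 (adjusted p = 0.0190) and fell by 2.28 ± 0.58 in recruited cells from day 3 to day 6 (adjusted p = 0.00541). Ccr8, known as a receptor of mouse Ccl8, Ccr3 and the scavenging receptors Ackr1, Ackr2 and Ackr4 had at most 7 counts in any group and were not tested.

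**Figure D5:**
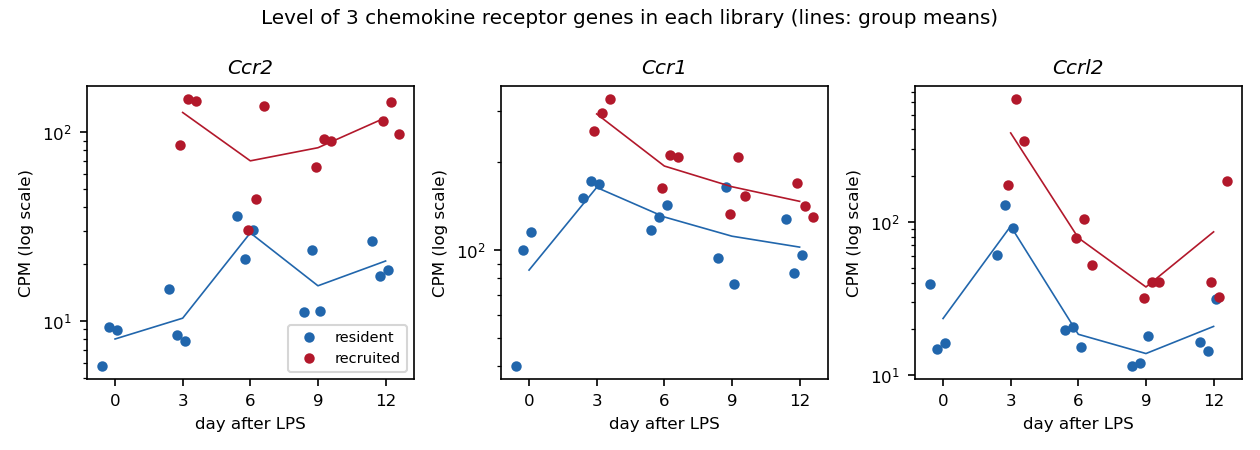
Level of 3 receptor genes in each library, in CPM on log axes that differ between panels, by day after LPS for resident (blue) and recruited (red) cells; lines join the group means. Ccr2 is higher in recruited cells on every day on average, and Ccrl2 is highest on day 3 in both populations.

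Genes around the chemokines were counted by lists, beside 30.3% of all genes higher and 30% lower in recruited cells averaged over days. All 3 tested of the 8 listed receptors were higher in recruited cells in that average (median 1.90 log2). Of 10 tested proteases and cyclases that trim or cap chemokines at their amino terminus, 8 were higher and 1 lower (median 1.95), led by the metalloproteinase Mmp13 (3.97 ± 0.36, adjusted p = 1.32e-09). Of 15 genes of LPS sensing, 8 were higher and 2 lower (median 0.25), among them the co-receptor Cd14 (1.98 ± 0.14, adjusted p = 7.63e-11). NF-kB subunits and inhibitors were higher in 9 of 14 and lower in 0 (median 0.34), with the inhibitor Nfkbie at 1.31 ± 0.11 (adjusted p = 5.61e-10). AP-1 and C/EBP factors were higher in 5 of 11 and lower in 1 (median 0.76), and interferon signalling genes higher in 10 of 15 and lower in 1 (median 0.43), with the receptor chain Ifnar1 at 1.33 ± 0.06 (adjusted p = 1.32e-14). Upstream cytokines were higher in 7 of 9 tested (median 1.49), led by Csf1, the macrophage growth factor, at 4.19 ± 0.19 (adjusted p = 8.16e-14). Genes of mRNA decay were higher in 2 of 9 and lower in 3 (median 0.14), with Zfp36l1, which binds AU-rich messages, at 2.62 ± 0.13 (adjusted p = 2.11e-13) and its relative Zfp36l2 at -0.58 ± 0.08 (adjusted p = 1.79e-06). Genes of monocyte mobilisation were higher in 7 of 10 and lower in 2 (median 1.89). None of the 4 listed neighbours of the cluster was tested, and Asic2 and Tmem132e, which flank it, had 0 counts.

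On day 3 alone, when most members peaked, 4 of 10 enzymes acting at the amino terminus were higher in recruited cells and 1 lower, and 5 of 9 cytokines were higher and 0 lower. NF-kB genes were higher in recruited cells in 12 of 14 and interferon signalling genes in 12 of 15, with 0 lower in either list (all genes: 23.2% higher and 23.5% lower). Genes of LPS sensing were higher in 8 of 15 and AP-1 and C/EBP factors in 3 of 11, with 0 lower in either. Of 9 mRNA decay genes 3 were higher and 2 lower, and of 10 monocyte mobilisation genes 7 and 1. All 3 tested receptors were higher. Irf7, a factor of the interferon response, was higher by 2.81 ± 0.59 log2 (adjusted p = 0.000552). In resident cells from day 0 to day 3, 8 of 14 NF-kB genes rose and 2 fell, 8 of 15 interferon signalling genes rose and 1 fell, and 4 of 9 cytokines rose and 0 fell (all genes: 13.3% rose and 10.5% fell). Among them Il1b, which raises Ccl2 in many cells, rose by 4.36 ± 0.58 log2 (adjusted p = 2.49e-05) and Irf1 by 2.83 ± 0.24 (adjusted p = 1.75e-08). Of 15 genes of LPS sensing 4 rose and 1 fell, and of 11 AP-1 and C/EBP factors 2 rose and 2 fell. Of 10 enzymes acting at the amino terminus 4 rose and 0 fell, and of 3 receptors 2 and 0. Of 10 monocyte mobilisation genes 4 rose and 1 fell, and of 9 genes of mRNA decay 1 rose and 1 fell. The mRNA-cleaving Zc3h12a, also called MCPIP1 after its induction by Ccl2, rose by 1.32 ± 0.25 (adjusted p = 0.000647), and Rc3h2, which also binds messages for decay, fell by 0.62 ± 0.14 (adjusted p = 0.00196).

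Markers of other cells that could make these chemokines or enter the gates were set beside the course. Those of neutrophils (12 genes) summed to 503 to 1022 CPM in recruited cells on day 3 and to 283 to 443 CPM on later days, and to 215 to 242 CPM in resident cells on day 3 and 116 to 172 CPM on the other days, so that they were highest on the day Ccl2, Ccl7 and Ccl12 were. Elane and Mpo, which mark immature neutrophils, had at most 3 counts in any library. Endothelial and fibroblast markers (11 genes) summed to 64.3 to 127 CPM in recruited cells on day 3 and 243 to 577 CPM later, most of it from Vwf, whose mean was 53.2 CPM on day 3 and 291 to 486 CPM later. Other markers of the list went the other way, with mean levels in recruited cells of 25.5 CPM on day 3 and 2.10 to 4.09 CPM later for Kdr, 19.8 and 1.06 to 2.98 CPM for Pecam1, and 5.47 and 0.964 to 1.70 CPM for Pdgfrb. Of 5 tested, 4 were higher and 1 lower in recruited than in resident cells on day 3, and 3 rose and 1 fell in resident cells from day 0 to day 3. Epithelial markers (11 genes) were at 13.7 to 39.96 CPM on day 3 and 32.8 to 134 CPM later in recruited cells. Their sum was higher in resident cells, at 557 to 859 CPM on day 0, 263 to 438 CPM on day 3 and 463 to 833 CPM later. Of 10 tested, 4 were lower and 0 higher in recruited cells on day 3 (all genes: 23.5% lower). Cdh1 and Krt19, with at least 5 CPM in recruited cells on day 3, stood in resident cells at 706% and 4186% of the recruited level. Whether these transcripts came from epithelial cells was not tested. T and NK cell markers (12 genes) did not exceed 21.8 CPM, dendritic cell markers (8 genes) 23.8 CPM and B cell markers (7 genes) 4.19 CPM in any library. Red cell markers (6 genes) reached 194 CPM in 1 recruited and 144 CPM in 1 resident library, both of day 9. Of 7 eosinophil and basophil genes, Epx, Mcpt8, Fcer1a and Ms4a2 were at 0 in all libraries. C1q macrophage markers (13 genes) summed to 2668 to 3604 CPM in recruited cells on day 3 and to 13596 to 20182 CPM on day 6, while Ccl2, Ccl7 and Ccl12 fell. Most of this rise was in Apoe, whose mean was 1132 CPM on day 3 and 14348.5 CPM on day 6. The recruited libraries of these days overlapped in C1qa, at 188 to 347 and 208 to 731 CPM. The part of any of these cells in the chemokine levels was not tested.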

How the data were processed

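Polyadenylated RNA was sequenced on an Ion Proton from stranded libraries, per the labels. The authors deposited raw read counts per Ensembl gene. The submitters' processing notes name, without roles, the build mm10, R 3.1.0 with DESeq2 1.4.5, HTSeq 0.6.0 and STAR 2.4.0a, and no source used here gives the strand setting. Reads outside genes, 6.77% to 26.5% per library, stayed out of totals.

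Counts were filtered with filterByExpr of edgeR 4.0.16 (R 4.3.3; minimum count 10, total 15), scaled by TMM and fitted with 1 mean per group (18 residual degrees of freedom) and robust quasi-likelihood F tests, two-sided for single contrasts. Exact permutation of 3 against 3 libraries cannot go below p = 0.1. Against groups at 0 a floor of 3 counts over the group was used. Intervals are exact, at 95%, and cover counting error only. The fit was tested on simulated counts.

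Alternatives were DESeq2 1.42.0, other scalings and filters, fewer libraries, runs of column numbers as covariate, and a block by day and number. Equal numbers paired resident and recruited libraries in the data: deviations from the group means correlated across genes in all 12 pairs (r = 0.17 to 0.52), though the labels do not state a pairing. The libraries of each such pair also belong to the same run of column numbers. A shared source and a shared run therefore cannot be told apart. From each list up to 4 genes were named by size of change among those called. For the average over days, their recruited and resident libraries also had to be apart on each day. All tested receptors were given, called or not. Members and lists were chosen with earlier results of these data known. Sequences came from GENCODE M21 and RefSeq.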

Additional observations from a re-analysis of the deposited data

How the results depend on the processing

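Adjusted p-values for the members were recomputed under alternatives, 1187 values in all, of which 1124 kept their side of the threshold and any direction they had, 17 lost the call, 19 gained it and 27 turned direction, all of them with adjusted p of 0.529 or more. The replicate block by day and number gave Ccl8 adjusted p = 0.00662, 0.0156 and 0.0122 for the population difference on days 3, 9 and 12, and changed no other member's call, nor did a block by number across days (14 of 48 such pairs of libraries correlated over 0.1). The runs as covariate gave it 0.00241, 0.00730 and 0.00463, and 0.0120 and 0.00423 for recruited days 9 and 12 against day 3. For the population differences the block by day and number and the runs are not separate checks, since each block lies within the same run. Leaving out both recruited libraries that stood apart, a choice made after seeing the data, gave Ccl8 0.00559 on day 3 and 0.00879 and 0.0280 for those 2 falls. DESeq2 gave Ccl8 0.0301 and 0.0232 on days 9 and 12 and Ccl12 0.0381 on day 9. No filter gave 0.0793 (Ccl7) and 0.0595 (Ccl12) for resident day 6 against day 3.

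Leaving out 1 replicate, adjusted p for the population difference ran from 0.0292 to 0.0834 for Ccl8 and 0.00193 to 0.0734 for Ccl12 on day 6, from 0.0177 to 0.921 and 0.0262 to 0.655 on day 9, and from 0.0431 to 0.418 for Ccl8 on day 12. For resident day 6 against day 3 it ran from 0.0224 to 0.120 (Ccl7) and 0.0491 to 0.111 (Ccl12), and for Ccl8 in recruited day 9 against day 3 from 0.0293 to 0.997, at -4.50 to 0.52 log2. Other estimates that turned direction were uncalled throughout. For the change of the gap, adjusted p ran from 0.695 to 0.973 (Ccl7), 0.664 to 0.876 (Ccl8) and 0.686 to 1 (Ccl12) on day 6, from 0.627 to 0.912 (Ccl8) on day 9, and from 0.577 to 1 (Ccl2), 0.675 to 1 (Ccl7), 0.584 to 0.9999 (Ccl8) and 0.735 to 0.898 (Ccl12) on day 12. Without both libraries that stood apart it was 0.859 (Ccl2, -0.42 log2) and 0.961 (Ccl7, -0.22) on day 12 and 0.529 (Ccl8, -3.12) on day 9. For Ccl8 in resident day 6 against day 3 it ran from 0.617 to 0.890, for Ccl12 in resident day 9 against day 0 from 0.804 to 1, and for Ccl8 there it was 0.856 with runs (-0.56 log2).

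Counts of all genes called moved more. The change of the gap over any day went from 1449 to 2459 with the replicate block and 2483 with runs (897 to 1679 leaving out 1 replicate), that of day 6 from 1147 to 2198 and 2062, of day 9 from 1793 to 2913 and 2802 (947 from the compared libraries alone), and of day 12 from 1853 to 2953 and 2818. From the compared libraries alone, recruited day 9 against day 3 went from 4933 to 2772 and the population difference of day 9 from 4351 to 2497. Against resident day 0, day 6 went from 873 to 1446 (compared libraries alone) and 1586 (runs), day 9 from 474 to 813 (DESeq2), 122 (compared libraries alone) and 1076 (runs), and day 12 from 177 to 398 (DESeq2) and 379 (runs). Leaving out 1 replicate gave 1897 to 2851 for day 3, 450 to 605 for day 6, 167 to 405 for day 9, 75 to 144 for day 12, and 1948 to 2857 for resident day 6 against day 3. The cause was not tested. Scaling by library size alone moved the median of all genes in recruited minus resident cells on day 3 from 0.05 to -0.07 log2, and the calls from 3149 higher and 3193 lower to 2302 and 3669. With a prior count of 0.5 in place of 2, 3 of the 5 genes most like Ccl2, Ccl7 or Ccl8 were the same and 2 of the 5 for Ccl12. Ccl8 and resident levels are limited by depth, at 0 to 33 counts and, for Ccl2 outside day 3, 1 to 9 counts per library.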
